A study of Mus musculus with 12 samples.

Results

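The enzymes described here are the 10 that carry squalene to cholesterol: Sqle, Lss, Cyp51, Tm7sf2, Msmo1, Nsdhl, Hsd17b7, Ebp, Sc5d and Dhcr7. They were taken by gene symbol from the platform annotation, with the probe set of highest mean over all arrays for each gene. All 10 were found among 22180 named genes, and each had 1 probe set. Liver RNA of male C57BL6 mice was measured in 12 samples, each on 1 Affymetrix array. In the first group, high-fat MSX, the mice ate a diet with 45% of its energy from fat to which 0.5% (w/w) of MSX, a phenol-enriched maple syrup extract, was added. The second, low-fat MSX, had the same extract in a diet with 10% of its energy from fat. The high-fat control and low-fat control groups ate those diets without extract. Each group had 3 arrays, labelled as biological replicates. The mice were fed without restriction for 12 weeks, from 6 to 18 weeks of age. The labels give no genetic change, and they state neither whether mice were pooled nor whether they had fasted when tissue was taken. Levels are the deposited log2 values, on which a difference of 1 is a doubling.

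Cholesterol is made in the endoplasmic reticulum from acetyl-CoA by way of mevalonate and squalene. Squalene epoxidase adds oxygen, lanosterol synthase closes the rings, and a chain of oxidases, reductases and an isomerase trims lanosterol to cholesterol. The liver is a main site of this synthesis. Most of these genes are known targets of the transcription factor SREBP-2, which SCAP and the Insig proteins hold in the membrane while sterols are plentiful.

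Promoter sequence, from RefSeq on GRCm38.p6, is shown for 4 of the enzymes, 3 that passed the test in some comparison and Ebp, which passed in none. Each line gives the 250 bases before the annotated start of the gene, on the gene's own strand, 5′ to 3′. Capitals mark CCAAT boxes, the sequence bound by the factor NF-Y, in either orientation (CCAAT or ATTGG). Cyp51 lies on the minus strand at chr5:4104698-4104947, Msmo1 on the minus strand at chr8:64733579-64733828, Nsdhl on the plus strand at chrX:72918271-72918520 and Ebp on the minus strand at chrX:8193513-8193762.
Cyp51: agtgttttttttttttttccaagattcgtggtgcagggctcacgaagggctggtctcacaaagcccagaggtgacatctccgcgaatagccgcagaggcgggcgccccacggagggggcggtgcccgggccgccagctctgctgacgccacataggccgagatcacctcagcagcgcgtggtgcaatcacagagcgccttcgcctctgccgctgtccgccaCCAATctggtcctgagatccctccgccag
Msmo1: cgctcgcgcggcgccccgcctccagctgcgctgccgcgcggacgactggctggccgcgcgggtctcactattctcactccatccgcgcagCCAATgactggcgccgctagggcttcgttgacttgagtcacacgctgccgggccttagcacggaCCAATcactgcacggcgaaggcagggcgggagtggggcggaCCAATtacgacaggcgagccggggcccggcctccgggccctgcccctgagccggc
Nsdhl: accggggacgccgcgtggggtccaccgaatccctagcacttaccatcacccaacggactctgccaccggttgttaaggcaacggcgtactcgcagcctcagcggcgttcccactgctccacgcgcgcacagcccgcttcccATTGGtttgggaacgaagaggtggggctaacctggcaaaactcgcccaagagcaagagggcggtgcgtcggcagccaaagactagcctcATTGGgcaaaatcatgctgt
Ebp: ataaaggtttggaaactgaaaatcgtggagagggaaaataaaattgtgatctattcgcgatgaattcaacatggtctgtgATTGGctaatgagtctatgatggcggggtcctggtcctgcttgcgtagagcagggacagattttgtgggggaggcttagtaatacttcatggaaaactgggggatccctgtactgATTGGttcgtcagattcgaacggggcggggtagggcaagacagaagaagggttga

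Of the 10 enzymes, 9 had at least 1 such window, 11 windows in all because Dhcr7 has 3 annotated starts. Sqle had no window in the promoter sequences used and is not in these counts. CCAAT on either strand was found in 9 of the 11 windows (81.8%), at least once for each of the 9 genes, against 33.8% of all 32851 promoter windows of the same length. The GC box GGGCGG, bound by Sp1, was found in 10 of the 11 (90.9%), against 32.7% of all windows, and in no case did it overlap a CCAAT box. The letters TCACNCCAC, a form of the sterol regulatory element, were in 0 of the 11 windows and in 1.05% of all windows. Other forms of the element were not searched, so that the 0 does not show that the windows lack one. Msmo1 had 3 CCAAT boxes, and Cyp51 had 1. Nsdhl and Ebp had 2 each, so that the box was as frequent before Ebp, which passed in no comparison, as before Nsdhl. These are counts of letters in a short window, not binding sites.

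Sqle, squalene epoxidase and a control point of the pathway, showed the widest range of the 10 across the arrays. Its log2 level was 7.13, 6.42 and 6.74 in high-fat MSX livers, 6.43, 6.40 and 5.84 in low-fat MSX livers, 6.82, 6.41 and 6.92 in high-fat control livers, and 4.95, 4.99 and 4.56 in low-fat control livers. The 3 low-fat control arrays were the lowest of the 12 and did not overlap any other group. The next enzyme, Lss (lanosterol synthase), was at 6.36, 6.23 and 5.78 in high-fat MSX, 6.34, 6.42 and 6.07 in low-fat MSX, 6.26, 6.02 and 6.07 in high-fat control and 5.28, 5.48 and 5.97 in low-fat control livers. Low-fat control replicate 3 lay above the lowest high-fat MSX array, so that for Lss those groups overlapped.

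Cyp51, the cytochrome that demethylates lanosterol, separated the groups with the least spread. It was at 7.85, 7.69 and 7.58 in high-fat MSX, 7.28, 7.33 and 7.10 in low-fat MSX, 7.36, 7.48 and 7.43 in high-fat control and 6.15, 6.21 and 6.02 in low-fat control livers. No pair of the 4 groups overlapped for this gene. Tm7sf2, the sterol reductase of the following step, ranged over 8.53 to 8.92 in high-fat MSX, 8.43 to 9.08 in low-fat MSX, 8.38 to 8.84 in high-fat control and 8.40 to 8.59 in low-fat control livers, with all groups overlapping.

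The removal of the next methyl groups from the sterol ring is shared by Msmo1, an oxidase, Nsdhl, a dehydrogenase that also removes the carbon, and Hsd17b7, a ketoreductase. Msmo1 was at 7.94, 7.81 and 7.65 in high-fat MSX, 7.45, 7.60 and 6.72 in low-fat MSX, 7.70, 7.57 and 7.59 in high-fat control and 6.27, 6.37 and 5.62 in low-fat control livers. Nsdhl was at 8.67, 8.53 and 8.08 in high-fat MSX, 8.57, 8.79 and 7.71 in low-fat MSX, 8.13, 7.89 and 7.73 in high-fat control and 6.79, 6.49 and 7.05 in low-fat control livers. For both genes the low-fat control arrays lay below all 9 others. Hsd17b7 ranged over 7.94 to 8.37 in high-fat MSX, 7.80 to 8.11 in low-fat MSX, 8.09 to 8.29 in high-fat control and 7.73 to 8.01 in low-fat control livers, a far narrower span.

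Ebp, the isomerase that shifts a ring double bond, Sc5d, a sterol desaturase, and Dhcr7, which reduces the last ring double bond, act at the end of the chain. Ebp ranged over 9.53 to 9.82 in high-fat MSX, 9.75 to 9.78 in low-fat MSX, 9.38 to 9.93 in high-fat control and 9.56 to 9.85 in low-fat control livers, with all groups overlapping. Sc5d ranged over 10.81 to 10.92 in high-fat MSX, 10.54 to 11.07 in low-fat MSX, 10.57 to 10.97 in high-fat control and 10.45 to 10.57 in low-fat control livers. Dhcr7 was at 8.39, 8.61 and 8.43 in high-fat MSX, 8.62, 8.94 and 8.29 in low-fat MSX, 8.41, 8.35 and 8.25 in high-fat control and 7.95, 8.01 and 7.74 in low-fat control livers. As with Sqle, Cyp51, Msmo1 and Nsdhl, all 3 low-fat control arrays were the lowest of the 12 for Dhcr7. The share of all genes with this order was not counted, so that how unusual it is cannot be judged here.

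**Figure D1:**
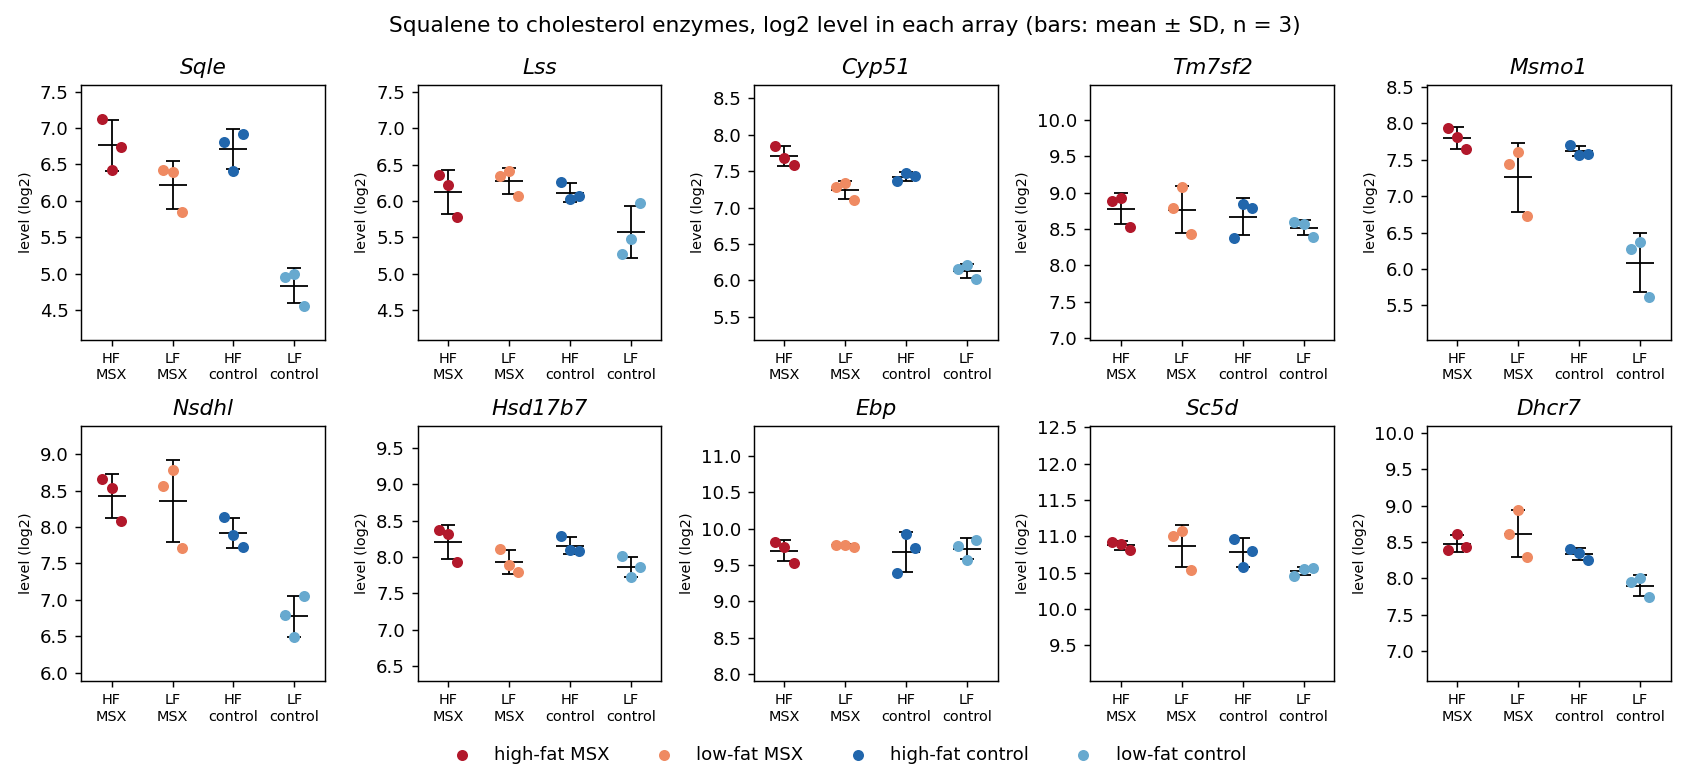
Log2 level (y axis, the same span of values in every panel) of each of the 10 enzymes in the 12 arrays, by group (x axis; HF, high fat; LF, low fat). Points are arrays, bars are mean ± SD (n = 3). For Sqle, Cyp51, Msmo1, Nsdhl and Dhcr7 the 3 low-fat control arrays lie below all others, while the groups of Ebp overlap.

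On the low-fat diet the extract was tested by setting low-fat MSX against low-fat control livers. Sqle averaged 6.22 ± 0.33 in low-fat MSX and 4.84 ± 0.24 in low-fat control livers (SD, n = 3 each) and rose by 1.39 on the log2 scale (2.61-fold, 95% interval 1.90 to 3.60, adjusted p = 0.0299). Cyp51 averaged 7.24 ± 0.12 in low-fat MSX and 6.13 ± 0.10 in low-fat control livers and rose by 1.11 (2.16-fold, 1.82 to 2.57, adjusted p = 0.00137). Nsdhl averaged 8.36 ± 0.57 in low-fat MSX and 6.78 ± 0.28 in low-fat control livers and rose by 1.58 (2.99-fold, 2.05 to 4.35, adjusted p = 0.0338). These 3 of 10 passed the threshold upward, where 0.0631% of all genes did, and 0 passed downward. The adjusted p-values are from limma over all 22180 genes.

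The other 7 enzymes of the chain did not pass on the low-fat diet. Msmo1 had a difference of 1.17 (2.25-fold, adjusted p = 0.0774), Dhcr7 one of 0.71 (adjusted p = 0.122) and Lss one of 0.70 (adjusted p = 0.278). Those of Sc5d, Tm7sf2, Hsd17b7 and Ebp lay between 0.05 and 0.35 (adjusted p of 0.578 or more). In 6 of the 10 every low-fat MSX array was above every low-fat control array, which held for 7.13% of all genes. The median log2 difference over the 10 was 0.71, and that over all genes was −0.0014. Without low-fat MSX replicate 3, 5 enzymes passed, with Msmo1 (adjusted p = 0.0135) and Dhcr7 (adjusted p = 0.0411) joining. Without any 1 of the other 5 arrays only Cyp51 passed, with Sqle at up to 0.111 and Nsdhl at up to 0.164.

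The diet alone was tested in the livers without extract, high-fat control against low-fat control. Sqle averaged 6.71 ± 0.27 in high-fat control and 4.84 ± 0.24 in low-fat control livers and rose 3.67-fold (95% interval 2.67 to 5.06, adjusted p = 0.00519), at rank 3 of all genes by p. Cyp51 averaged 7.42 ± 0.06 in high-fat control and 6.13 ± 0.10 in low-fat control livers and rose 2.45-fold (2.06 to 2.92, adjusted p = 0.000893), at rank 1 of 22180. Msmo1 averaged 7.62 ± 0.07 in high-fat control and 6.09 ± 0.41 in low-fat control livers, a 2.89-fold difference that stood at rank 5 by p and missed the threshold (2.07 to 4.06, adjusted p = 0.0519). It passed, for example, when dim genes were left out before the adjustment (adjusted p = 0.0254).

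Of the 10, 2 passed the threshold upward on the high-fat diet without extract, against 0.0135% of all genes, and 0 passed downward. In 8 of the 10 the high-fat control arrays all lay above the low-fat control arrays, which held for 5.29% of all genes. Tm7sf2 and Ebp were the exceptions. Nsdhl had a log2 difference of 1.14 (2.20-fold, adjusted p = 0.278), Lss one of 0.54 and Dhcr7 one of 0.43 (adjusted p = 0.596 for both). The median over the 10 was 0.49, and over all genes −0.0048. When low-fat control replicate 3 was left out, Sqle reached an adjusted p of 0.05004, and 1 enzyme passed.

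High-fat MSX livers, which differ from the low-fat controls in both diet and extract, had the highest mean of the 4 groups for Sqle, Cyp51, Tm7sf2, Msmo1, Nsdhl, Hsd17b7 and Sc5d. Some leads were small, with Sc5d at 10.874 against 10.872 in low-fat MSX and Sqle at 6.76 against 6.71 in high-fat control livers. Only for Cyp51 were the high-fat MSX arrays apart from those of the next group. Set against low-fat control, Cyp51 rose 2.98-fold (95% interval 2.51 to 3.55, adjusted p = 8.03e-05), Sqle 3.80-fold (2.76 to 5.23, adjusted p = 0.00389), Msmo1 3.28-fold (2.34 to 4.59, adjusted p = 0.0132) and Nsdhl 3.14-fold (2.16 to 4.57, adjusted p = 0.0310). These 4 of 10 passed upward, against 0.0406% of all genes, and 0 passed downward. The groups were apart in 6 of the 10, against 7.06% of all genes. The median log2 difference was 0.56 over the 10 and 0.00012 over all genes. Cyp51 and Sqle passed whichever of the 6 arrays was left out. Msmo1 no longer passed when low-fat control replicate 3 or any 1 high-fat MSX array was absent (adjusted p up to 0.0851), and neither did Nsdhl when any 1 of the 6 was absent (up to 0.233). These 3 comparisons share the low-fat control arrays, so that a low value in those arrays enters all of them. It also enters the difference of extract effects given below.

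**Figure D2:**
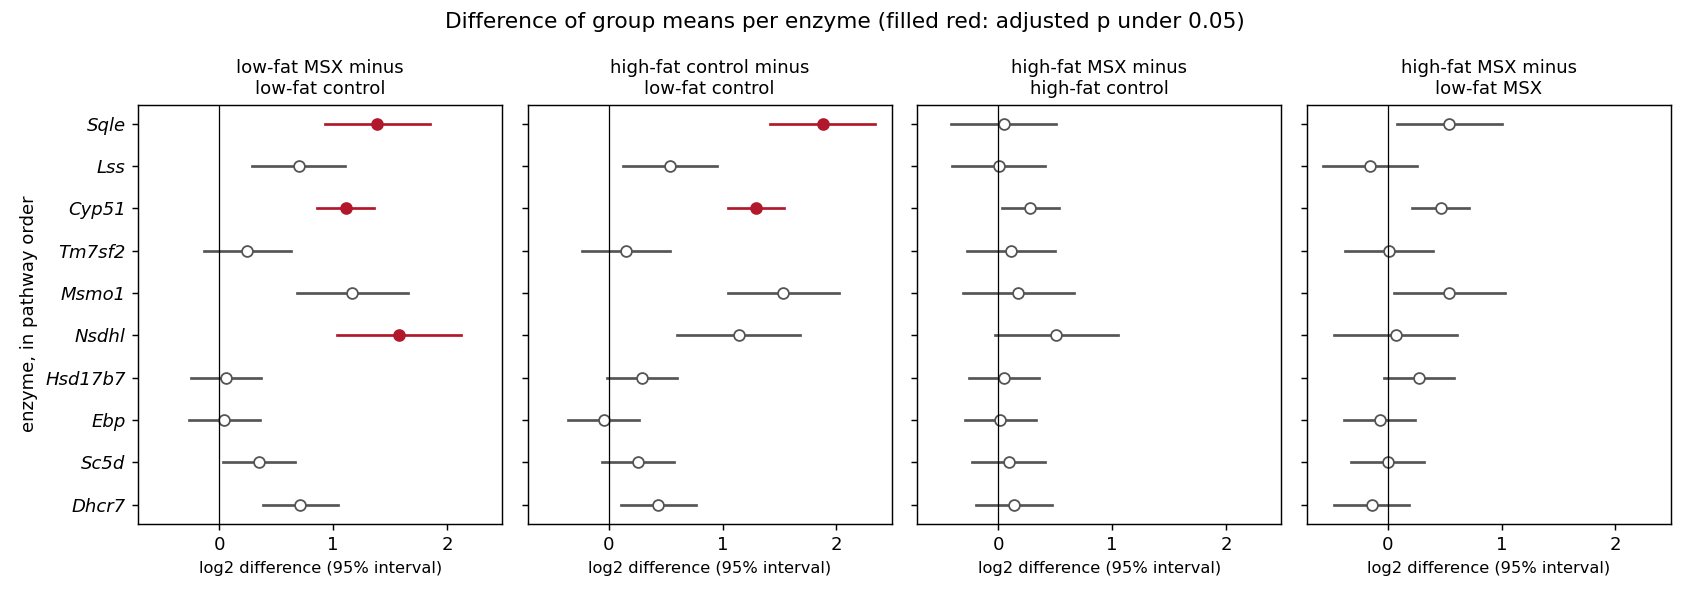
Difference of group means on the log2 scale (x axis) for each enzyme in pathway order (y axis), with 95% intervals, in 4 comparisons. Filled red points passed an adjusted p of 0.05. Sqle, Cyp51, Msmo1 and Nsdhl had differences above 1 in both panels that use the low-fat controls, and no enzyme did in the other panels.

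On the high-fat diet the extract was compared in high-fat MSX and high-fat control livers. Sqle averaged 6.76 ± 0.35 in high-fat MSX and 6.71 ± 0.27 in high-fat control livers, a log2 difference of 0.05 (95% interval −0.41 to 0.51). Msmo1 averaged 7.80 ± 0.15 in high-fat MSX and 7.62 ± 0.07 in high-fat control livers, a difference of 0.18 (−0.31 to 0.66). Cyp51 averaged 7.71 ± 0.13 in high-fat MSX and 7.42 ± 0.06 in high-fat control livers, a difference of 0.28 (0.03 to 0.53, adjusted p = 0.667). Nsdhl had the largest difference, 0.51 (−0.03 to 1.05, adjusted p = 0.749). In limma 0 of the 10 passed in either direction, against 0.0135% of all genes passing upward. At an unadjusted limma p under 0.05 there was 1 of the 10, beside 6.99% of all genes. All 10 differences were above 0, with a median of 0.10 beside 0.006 over all genes. Apart from Nsdhl, no interval reached above 0.66. The arrays were apart only for Cyp51, 1 of 10, against 6.7% of all genes.

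With extract in both diets, high-fat MSX was set against low-fat MSX. In limma 0 of the 10 passed, as did 0% of all genes upward. At an unadjusted limma p under 0.05 there were 3 of the 10, beside 4.56% of all genes. Those were Sqle with a log2 difference of 0.54 (95% interval 0.08 to 0.999), Msmo1 with 0.54 (0.06 to 1.03) and Cyp51 with 0.47 (0.22 to 0.72). Lss, Ebp and Dhcr7 had differences below 0, between −0.16 and −0.07. Arrays were apart for 2 of the 10, Cyp51 and Msmo1, against 4.68% of all genes. The median was 0.04 over the 10 and 0.0015 over all genes.

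Whether the extract acted differently on the diets was tested as the difference of both extract effects, high fat minus low fat. All 10 enzymes were below 0, with a median of −0.63 against 0.006 over all genes, of which 51.0% were above 0. Sqle had −1.34 (95% interval −1.99 to −0.69), Nsdhl −1.07 (−1.84 to −0.30), Msmo1 −0.99 (−1.68 to −0.30) and Cyp51 −0.83 (−1.18 to −0.48). None passed in limma, where 0% of all genes passed upward and 0 of 22180 downward (lowest adjusted p among the 10, 0.664). At an unadjusted p under 0.05 there were 6 of the 10, with Lss and Dhcr7 the others, beside 5.09% of all genes. The same 4 groups enter every enzyme's value, so that the 10 signs are not independent of each other. A low value in the low-fat control arrays by itself lowers this difference.

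Within both MSX groups most of the enzymes had the same lowest array. Low-fat MSX replicate 3 was the lowest array of its group for 10 of 10 enzymes, and for 37.6% of all genes. High-fat MSX replicate 3 was the lowest of its group for 8 of 10, and for 36.8% of all genes. In the high-fat and low-fat control groups no array was the lowest for more than 5 of the 10. The median of the 10 differences from each gene's own mean over the arrays was 0.33, 0.28 and 0.07 in high-fat MSX, 0.25, 0.35 and −0.19 in low-fat MSX, 0.24, 0.11 and 0.04 in high-fat control and −0.57, −0.43 and −0.44 in low-fat control livers. The low-fat control arrays were thus below all others, and low-fat MSX replicate 3 stood between them and the rest.

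**Figure D3:**
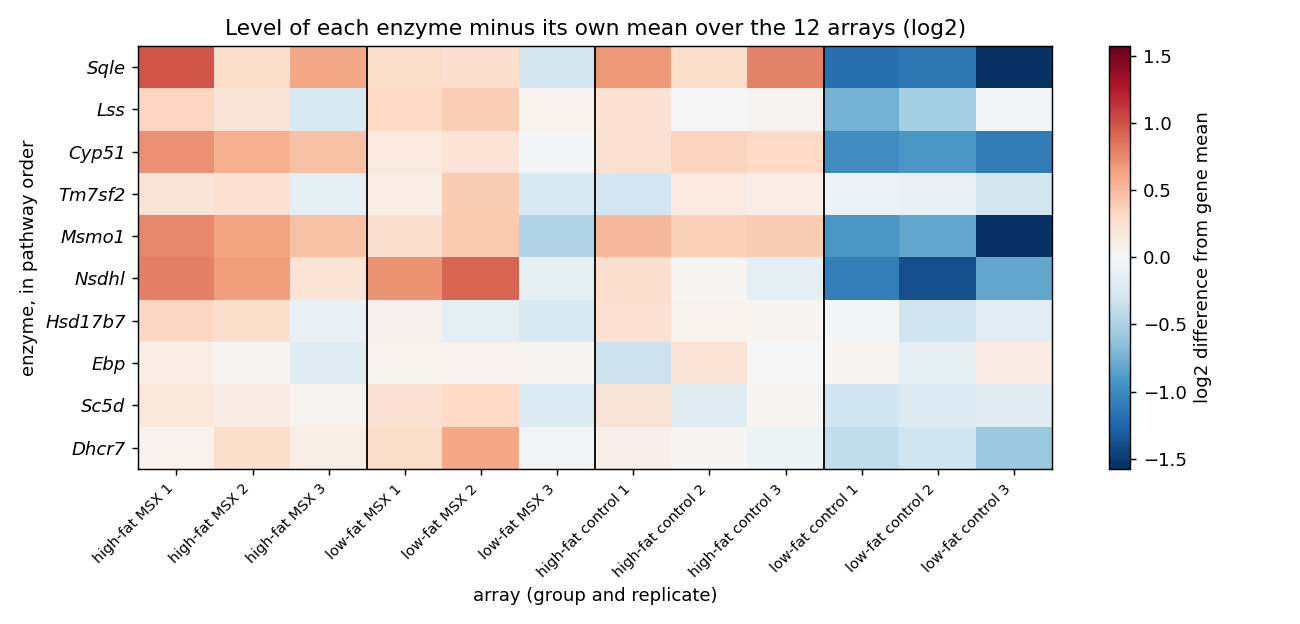
Level of each enzyme (rows, in pathway order) in each array (columns, by group) minus that gene's mean over the 12 arrays, in log2 units. Blue is below and red above the mean. Rows differ in range, from Sqle, Msmo1 and Nsdhl with the strongest colours to Ebp with the weakest. The low-fat MSX replicate 3 column is paler or bluer than the other low-fat MSX columns.

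The enzymes were also compared by the shape of their profile over the 12 arrays, as the mean absolute difference of standardised values (each gene's level minus its mean, over its SD). Nsdhl lay closest to the mean profile of the other 9, at 0.31 SD, followed by Msmo1 at 0.35 and Cyp51 at 0.41. Hsd17b7 lay at 0.62 and Ebp at 0.97. The median over all other named genes, set against the mean profile of the 10 was 0.98, next to which Ebp stood. The SD over the 12 arrays was 0.85 for Sqle, 0.76 for Nsdhl, 0.75 for Msmo1 and 0.63 for Cyp51, against 0.15 for Ebp. The 5 genes outside the 10 whose profile was closest to their mean were Cyb5b at 0.23, Tiparp at 0.26, Fdps at 0.27, Insig1 at 0.30 and Prkdc at 0.31 SD.

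Of 9 listed enzymes that lead from acetyl-CoA to squalene, 6 were measured. Fdps, farnesyl diphosphate synthase, was the 1 that passed, in low-fat MSX against low-fat control, where it rose by 1.44 on the log2 scale (adjusted p = 0.0332). It passed without low-fat MSX replicate 3, and with any 1 of the other 5 arrays left out it did not (adjusted p up to 0.161). Its difference in high-fat control against low-fat control was 1.30 (adjusted p = 0.103). Hmgcs1, which makes HMG-CoA, had log2 differences of 0.47 in low-fat MSX (adjusted p = 0.588) and 1.32 in high-fat control livers (adjusted p = 0.0761), each against low-fat control. Its promoter window held the letters TCACCCCAC, a match to the 1 form of the sterol element that was searched. The 11 windows of the later enzymes held no match to that form, which 1.05% of all windows held. The medians of the 6 were 0.45 in low-fat MSX and 0.39 in high-fat control livers, each against low-fat control, and 0.02 in high-fat MSX against high-fat control.

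Among 8 measured genes of SREBP control and uptake, Insig1, which retains the SREBP complex and is itself a target, rose by 1.38 in low-fat MSX (adjusted p = 0.0173) and by 1.45 in high-fat MSX (adjusted p = 0.0135), each against low-fat control, and was the 1 that passed. The first call was lost in 4 of the 6 fits that left out an array, namely low-fat control replicate 2 or 3 or low-fat MSX replicate 1 or 2 (adjusted p up to 0.102). The second was lost in 5 of 6, with low-fat control replicate 1 the exception (up to 0.106). Its difference in high-fat control livers was 1.02 (adjusted p = 0.172). Srebf2, the gene of SREBP-2, had 0.05 in low-fat MSX (95% interval −0.25 to 0.35) and 0.48 in high-fat control livers (adjusted p = 0.499), each against low-fat control. Of 6 measured genes of LXR and sterol efflux, 0 passed in limma in any of the 6 comparisons (between 0 and 2 at an unadjusted p under 0.05), and their medians lay between −0.08 and 0.13. Single genes differed more than these medians. In high-fat MSX against high-fat control, where 4 of the 6 were above 0, Abcg8 had 0.64 and Abcg5 0.54 (limma adjusted p = 0.196 and 0.199). In high-fat control against low-fat control Abcg8 had −0.29 and Abcg5 −0.44 (limma adjusted p = 0.730 and 0.420). Of 6 measured partners and other late sterol enzymes 0 passed as well (between 0 and 4 at an unadjusted p under 0.05). Over all genes, between 4.56% and 8.25% had an unadjusted limma p under 0.05 in these comparisons. Lbr, a second sterol reductase for the Tm7sf2 step, had 0.32 in low-fat MSX and 0.42 in high-fat control livers (adjusted p = 0.744 and 0.776), while Tm7sf2 itself had 0.25 and 0.15.

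**Figure D4:**
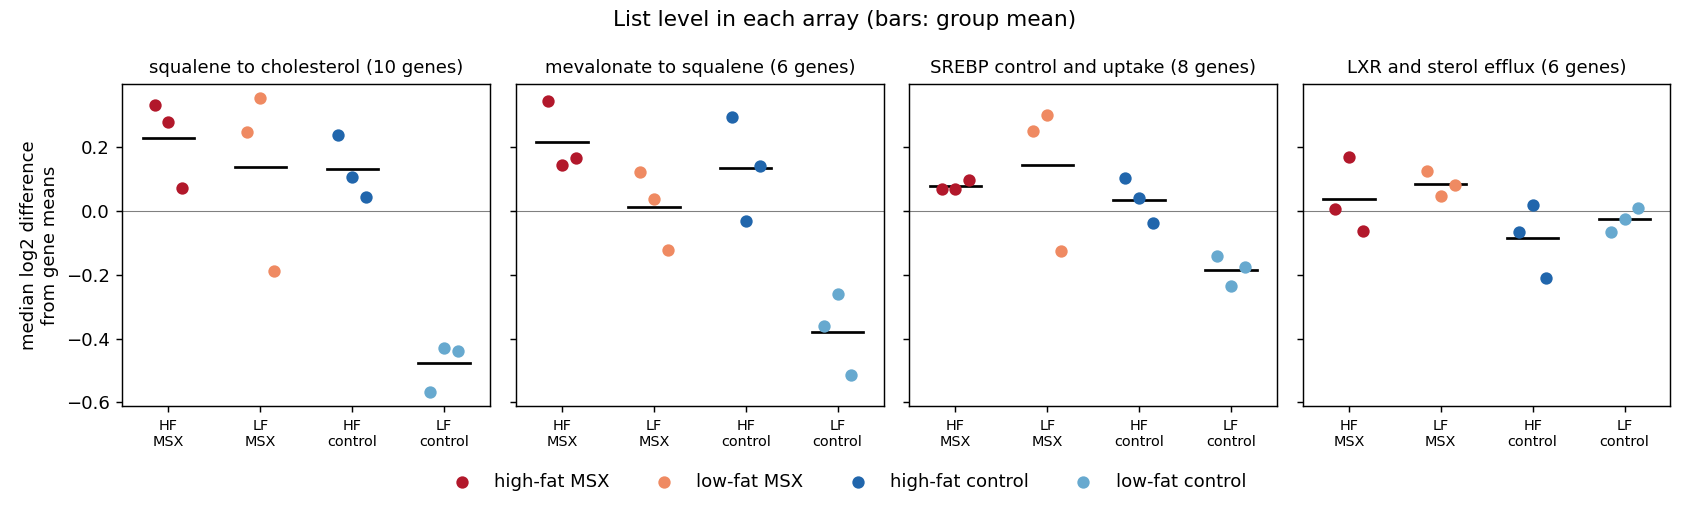
Median log2 difference of a list's genes from their own means over the 12 arrays (y axis), per array and by group (x axis), for 4 lists of sterol genes. Points are arrays and bars are group means. The low-fat control arrays are the lowest 3 for squalene to cholesterol, mevalonate to squalene and SREBP control, and lie among the others for LXR and sterol efflux.

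The arrays were close in overall level, with medians of 4.68 to 4.75 and correlations of 0.973 to 0.984 between arrays. Markers of hepatocytes, such as albumin, were high in all arrays. The mean log2 level of the 6 listed genes was 13.18 to 13.25 in high-fat MSX and 13.24 to 13.26 in low-fat MSX livers. It was 13.14 to 13.19 in high-fat control and 13.24 to 13.26 in low-fat control livers. In whole liver fewer cells of a type and less RNA per cell cannot be told apart. High-fat control replicate 1 stood high in stellate cell genes, whose mean over 6 of 6 genes ranged over 6.88 to 7.30 in high-fat MSX, 7.27 to 7.59 in low-fat MSX, 7.15 to 8.23 in high-fat control and 7.01 to 7.25 in low-fat control livers. Of 39 measured markers of 8 cell types, 0 passed in limma in any comparison, and between 2 and 7 of the 39 had an unadjusted p under 0.05. The 7 were in high-fat control against low-fat control, with 3 of them stellate cell genes. High-fat MSX against high-fat control had 6, with 4 of them stellate cell genes, whose list median was −0.63. The difference of extract effects had 5, with 4 of them stellate cell genes. The share of all genes under that p was between 4.56% and 8.25%. Without high-fat control replicate 1 the same number of enzymes, 2, passed in high-fat control against low-fat control, with a median of 0.43. Low-fat MSX replicate 3 was lowest of its group in the mean of 6 macrophage markers (7.52, against 7.83 and 7.79 in replicates 1 and 2) and of 5 endothelial markers (8.18, against 8.50 and 8.54). The same array was highest of its group in the mean of 6 stellate cell markers (7.59, against 7.45 and 7.27) and of 4 cholangiocyte markers (5.39, against 5.02 and 5.01). Its 6 hepatocyte markers averaged 13.24, against 13.25 and 13.26 in replicates 1 and 2. Macrophage markers ranged over 7.75 to 7.80 in high-fat MSX, 7.52 to 7.83 in low-fat MSX, 7.01 to 8.15 in high-fat control and 7.33 to 7.85 in low-fat control livers. The part of these markers in the enzymes' values was not tested.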

How the data were processed

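Total RNA was taken from liver with Trizol and hybridised to Affymetrix arrays, per the labels' protocols. What the authors deposited is 1 log2 value per probe set and array, between 0.714 and 14.1. The submitters' processing notes name the Transcriptome Analysis Console, and the sources used here give neither its version nor the normalization.

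Of 41345 probe sets, 23521 had 1 symbol in the platform annotation, 1814 had several and 16010 were unlisted and not used. The probe set of highest mean was kept for each of 22180 genes. The 4 group means of all 12 arrays were compared by two-sided moderated tests of limma 3.58.1 (R 4.3.3), with 8 residual and 5.18 prior degrees of freedom, checked on simulated data. P-values were adjusted by Benjamini-Hochberg over all genes in each of 6 comparisons, with a threshold of 0.05. Exact permutation of 3 arrays against 3 cannot go below p = 0.1. Precision is set by the 3 arrays per group. No batch is labelled.

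Named genes were the 10 enzymes, up to 4 genes past the threshold per related list and comparison, the 4 measured genes of a sterol panel of 8, and the 5 genes of closest profile without provisional names. Abcg5 and Abcg8 were named in addition, after their values were seen. The enzymes, lists and tests were chosen with earlier results of these data known. Motifs were searched in the 250 bases before each RefSeq start.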

Additional observations from a re-analysis of the deposited data

Results flagged for a closer look

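Dhcr7, the reductase of the last ring double bond, met a descriptive criterion on single arrays: the 3 high-fat MSX arrays (8.39, 8.607 and 8.43 on the log2 scale) lay below the low-fat MSX mean of 8.614, and the 3 high-fat control arrays (8.41, 8.35 and 8.25) lay above the low-fat control mean of 7.90. High-fat MSX replicate 2 met it by the narrowest margin. The diet difference itself was −0.14 with extract (95% interval −0.47 to 0.19, unadjusted p = 0.377 in limma). Without extract it was 0.43 (0.10 to 0.77, unadjusted p = 0.0138 and adjusted p = 0.596 in limma). The difference with extract ran from −0.30 to 0.0226 with an array left out, so that a turn of sign was not shown. Lss also had a diet difference below 0 with extract, −0.16 (−0.56 to 0.25, unadjusted p = 0.427 in limma). Without extract the Lss difference was above 0, at 0.54 (0.13 to 0.95, unadjusted p = 0.0137 and adjusted p = 0.596 in limma). The difference of the extract effects for Dhcr7, high fat minus low fat, was −0.57 (95% interval −1.04 to −0.11, unadjusted p = 0.0197 and adjusted p = 0.955 in limma), which did not pass over all genes.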

How the results depend on the processing

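Each comparison was refitted after centring arrays on their medians, quantile normalization, leaving out dim genes and averaging probe sets. It was also refitted with a trended and robust variance, only the groups compared (not for the difference of extract effects) and a replicate block. Each array was left out in turn as well. The ranges given with an array left out cover only arrays of the groups compared, unless another array is named. In low-fat MSX against low-fat control the 3 enzymes past the threshold became 5 without dim genes, 5 with the trended variance and 1 with only the groups compared, where Sqle (adjusted p = 0.0688) and Nsdhl (0.152) were lost, and between 1 and 5 with an array left out. The 2 of high-fat control against low-fat control were between 1 and 2, and the 4 of high-fat MSX against low-fat control between 2 and 3, with an array left out. The replicate block gave 4, 3 and 4 in these comparisons, in the order named here, and 0 in the other 3; in it Msmo1 also passed in low-fat MSX against low-fat control (adjusted p = 0.0395) and in high-fat control against low-fat control (0.0102). Cyp51 kept each of its 3 calls under all these settings. Deviations of same-numbered arrays from their group means correlated between −0.126 and 0.112 over 18 pairs, so that the numbers were not taken as pairs. Over all genes, the 14 higher calls of low-fat MSX against low-fat control were between 3 and 40 under other settings and between 2 and 17 with an array left out, the 9 of high-fat MSX against low-fat control between 6 and 29 or 2 and 5, and the 3 of high-fat control against low-fat control between 3 and 9 or 1 and 4. The 3 of high-fat MSX against high-fat control were between 0 and 15 or 1 and 2. All 12 arrays share the estimate of spread, so that an array outside the groups compared also moved these counts. Without low-fat MSX replicate 3 there were 17 higher calls in high-fat MSX against low-fat control. The same fit gave 6 in high-fat control against low-fat control and 4 in high-fat MSX against high-fat control. The median over the enzymes kept its sign except in high-fat MSX against low-fat MSX, where it ran from −0.12 to 0.21.

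Differences near 0 changed sign, none of them past the threshold; the cause was not tested. Ebp became −0.00680 in high-fat MSX against high-fat control after quantile normalization and 0.0023 in high-fat MSX against low-fat control after centring, and Hsd17b7 0.015 in the difference of extract effects after quantile normalization. With an array left out, high-fat MSX minus high-fat control ran from −0.13 to 0.22 for Sqle, −0.11 to 0.18 for Lss, −0.0324 to 0.24 for Tm7sf2, −0.0285 to 0.19 for Hsd17b7, −0.13 to 0.14 for Ebp and −0.0108 to 0.19 for Sc5d. High-fat MSX minus low-fat MSX ran from −0.27 to 0.0156 for Lss, −0.16 to 0.17 for Tm7sf2, −0.25 to 0.28 for Nsdhl, −0.13 to 0.0120 for Ebp, −0.16 to 0.10 for Sc5d and −0.30 to 0.0226 for Dhcr7. Low-fat MSX minus low-fat control ran from −0.0245 to 0.14 for Hsd17b7 and −0.0344 to 0.11 for Ebp. For Ebp, high-fat control minus low-fat control ran from −0.17 to 0.11 and high-fat MSX minus low-fat control from −0.11 to 0.0578. The difference of extract effects ran from −0.31 to 0.0200 for Tm7sf2, −0.0923 to 0.12 for Hsd17b7 and −0.18 to 0.10 for Ebp.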
